A study of Rattus norvegicus with 16 samples.

Results

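S100a8, S100a9, Lcn2 and Slpi encode secreted proteins of the innate immune response, and they were followed here in the contused rat cortex over the first hours and days after a fluid percussion injury. The 4 genes were chosen from earlier results of the same time course, in which Lcn2 remained high at 48 h while the others receded. Their own differences between groups are therefore given as a description, without a test. They are 4 of the 14218 genes measured by at least 1 probe set that lists no other gene, and each of the 4 has a single probe set (1368494_at for S100a8, 1387125_at for S100a9, 1387011_at for Lcn2 and 1367998_at for Slpi).

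S100a8 and S100a9 are calcium-binding proteins that pair to form calprotectin, an abundant protein complex of the neutrophil cytosol. Calprotectin withholds zinc and manganese from microbes and, once released, activates Toll-like receptor 4. Lcn2, lipocalin 2, is stored in neutrophil granules and binds bacterial siderophores, the small molecules with which bacteria capture iron. In injured brain it is also made by reactive astrocytes and endothelial cells. Slpi, secretory leukocyte protease inhibitor, blocks neutrophil elastase and cathepsin G and dampens NF-kB signalling.

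In the GRCr8 assembly of RefSeq, S100a8 lies at chr2:178464095-178465223 and S100a9 near it at chr2:178487941-178490622. Lcn2 lies at chr3:36078432-36081851, and Slpi lies far from it on the same chromosome at chr3:173501573-173503822. Of the 4 genes 2 matched the RefSeq promoter table, S100a9 and Lcn2, and the bases before their start sites are shown so that motifs of the factors described further on can be read in them. Both genes are on the minus strand and the sequences are written 5′ to 3′, S100a9 from chr2:178490623-178490872 and Lcn2 from chr3:36081852-36082030. The table's start site of Lcn2 lies inside the annotated gene span, so 71 of the 250 bases before it fall within that span and are not printed. Capitals mark matches to the motifs searched.
S100a9: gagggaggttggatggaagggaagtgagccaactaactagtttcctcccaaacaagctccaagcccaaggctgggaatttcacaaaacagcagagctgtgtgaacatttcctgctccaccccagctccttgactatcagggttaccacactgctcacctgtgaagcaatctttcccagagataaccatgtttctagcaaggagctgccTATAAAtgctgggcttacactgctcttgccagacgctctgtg
Lcn2: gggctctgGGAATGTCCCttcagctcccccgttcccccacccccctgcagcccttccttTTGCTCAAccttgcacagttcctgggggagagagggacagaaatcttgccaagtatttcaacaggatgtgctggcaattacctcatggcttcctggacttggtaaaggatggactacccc
Both strands of the 250 bases before each start site were searched for the NF-kB consensus, for TTGCNNAA (a C/EBP core), for TTCNNNGAA (a STAT site) and for TATAAA, and no marked matches overlap. In the S100a9 window TATAAA was found at bases -42 to -37 from the start site, and none of the other motifs was found. In the Lcn2 window the NF-kB consensus was found on the opposite strand at bases -242 to -233, and TTGCNNAA was found at bases -191 to -184. Among 33469 rat promoter windows of the same length, 3.5% held the NF-kB consensus, 9.2% TTGCNNAA, 7.7% TTCNNNGAA and 12.9% TATAAA. A match describes the letters only.

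Male 8-week-old Wistar rats had a craniectomy and, 48 h later, either a moderate lateral fluid percussion of 3.3 ± 0.3 atm or a sham operation, so the shams carry the craniectomy too. After perfusion with saline, polyadenylated RNA from the cortex at the contusion was hybridised to 16 Affymetrix arrays. Injured animals gave 3 arrays each at 3, 6, 12 and 48 h, and sham animals gave 1 array at each of the same times. The study pooled the 3, 6 and 12 h shams as 1 control group, here the early shams (replicates 1, 2 and 3 in that order of time), and set the 48 h injury against the 48 h sham alone.

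Values are log2 intensities from which each probe set's median over the 16 arrays has been taken away. Differences between arrays can be read from them, but neither how strongly a gene is expressed nor whether it is detected, and no level can be set against that of another gene. The spread of values over all genes (SD) was 0.199 to 0.387 per array and was widest in injured 48 h replicate 2 and, at 0.372, in injured 12 h replicate 2. Injured 12 h replicate 2 also stood apart in its polyA spike-in controls, which averaged -1.50, against -0.16 to 0.44 on the other 15 arrays. Each array carries its own animal number, and p-values measure the spread between arrays. In the early shams, with 1 array at each time, this spread also takes in the time after the sham operation.

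S100a8, a calprotectin subunit, was near the shams at 3 h, far above them at 6 and 12 h and close to them again at 48 h on 2 of 3 arrays. Its log2 values in the order of the replicates were -0.52, -0.39 and -0.24 on the injured 3 h arrays, 2.54, 4.91 and 3.85 at 6 h, 3.88, 4.05 and 3.84 at 12 h, and -0.32, 1.70 and -0.33 at 48 h, against -0.54, -0.50 and -0.18 in the early shams and 0.18 in the 48 h sham. All 6 arrays of injured 6 and 12 h lay above every other array. At 48 h only replicate 2 stood above the shams, and it remained below the lowest 6 h array. The log2 difference from the early shams was 4.17 ± 0.53 (SE, n = 3 against 3) at 6 h, or 18.0-fold, and 4.33 ± 0.53 at 12 h, or 20.1-fold. In this bulk tissue a change in the number of cells of a type and a change in RNA per cell cannot be told apart.

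S100a9, the partner subunit, followed the same course. Its log2 values were -0.99, -0.90 and -0.32 on the injured 3 h arrays, 3.45, 5.51 and 4.54 at 6 h, 4.63, 4.74 and 4.38 at 12 h, and -0.29, 2.78 and -1.0 at 48 h, against -1.25, -1.46 and -0.54 in the early shams and 0.29 in the 48 h sham. Again the 6 arrays of injured 6 and 12 h did not overlap with any other group, and 48 h replicate 2 was set apart from its group. The log2 difference from the early shams was 5.58 ± 0.73 (47.9-fold) at 6 h and 5.67 ± 0.73 (50.8-fold) at 12 h. By size of increase S100a9 was number 2 of 14218 genes at 6 h and number 3 at 12 h, and S100a8 was number 12 and number 8.

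Between 6 and 12 h neither subunit moved beyond the spread of its arrays, with log2 differences (12 h minus 6 h) of 0.16 ± 0.53 for S100a8 and 0.08 ± 0.73 for S100a9. The spread was wide at 6 h, where replicate 1 was lowest and replicate 2 highest for both, and narrow at 12 h. From array to array the 2 subunits moved together, with a Pearson correlation of 0.99 over the 16 arrays, and of 0.937 over the deviations of the 12 injured arrays from their group means. These arrays share the injury, so the first value largely repeats the time course.

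Slpi, the protease inhibitor, was at sham values at 3 h and was highest at 12 h, above 6 h. Its log2 values were -1.31, -1.66 and -1.73 on the injured 3 h arrays, 0.31, 2.21 and 1.90 at 6 h, 2.98, 4.08 and 2.34 at 12 h, and -0.05, 1.72 and -0.97 at 48 h, against -1.76, -0.94 and -1.38 in the early shams and 0.05 in the 48 h sham. Every 12 h array lay above every 6 h array, by a narrow margin, and 48 h replicate 2 overlapped with the 6 h arrays. The difference from the early shams was 2.83 ± 0.62 (7.13-fold) at 6 h and 4.49 ± 0.62 (22.5-fold) at 12 h. The step from 6 to 12 h was a log2 difference of 1.66 ± 0.62. Slpi ranked number 30 among all genes at 6 h and number 6 at 12 h.

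Lcn2, the siderophore-binding lipocalin, kept its 12 h level at 48 h. Its log2 values were -4.16, -2.88 and -2.22 on the injured 3 h arrays, 0.06, 0.71 and -0.06 at 6 h, 1.72, 0.79 and 2.13 at 12 h, and 1.32, 1.77 and 1.32 at 48 h, against -4.83, -4.00 and -3.61 in the early shams and -2.36 in the 48 h sham. The 9 arrays of injured 6, 12 and 48 h all lay above all the others, and the 48 h arrays lay within the range of the 12 h arrays. At 3 h, replicates 2 and 3 were above all 3 early shams and replicate 1 was not.

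The log2 difference of Lcn2 from the early shams was 1.06 ± 0.45 at 3 h, 4.38 ± 0.45 (20.9-fold) at 6 h, 5.69 ± 0.45 (51.7-fold) at 12 h and 5.62 ± 0.45 (49.1-fold) at 48 h. In size of increase it was number 8 of all genes at 6 h, number 2 at 12 h and number 1 at 48 h. After a further quantile normalization of these values the 3 h difference was -0.44, and the larger differences were 2.95, 3.94 and 3.70 at 6, 12 and 48 h. Lcn2 was the lowest or the second lowest of the 14218 centred genes on each injured 3 h and early sham array. Quantile normalization sets the extremes of every array to common values. The -0.44 thus follows from these places and cannot show whether the 3 h difference depends on the scaling of arrays.

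**Figure D1:**
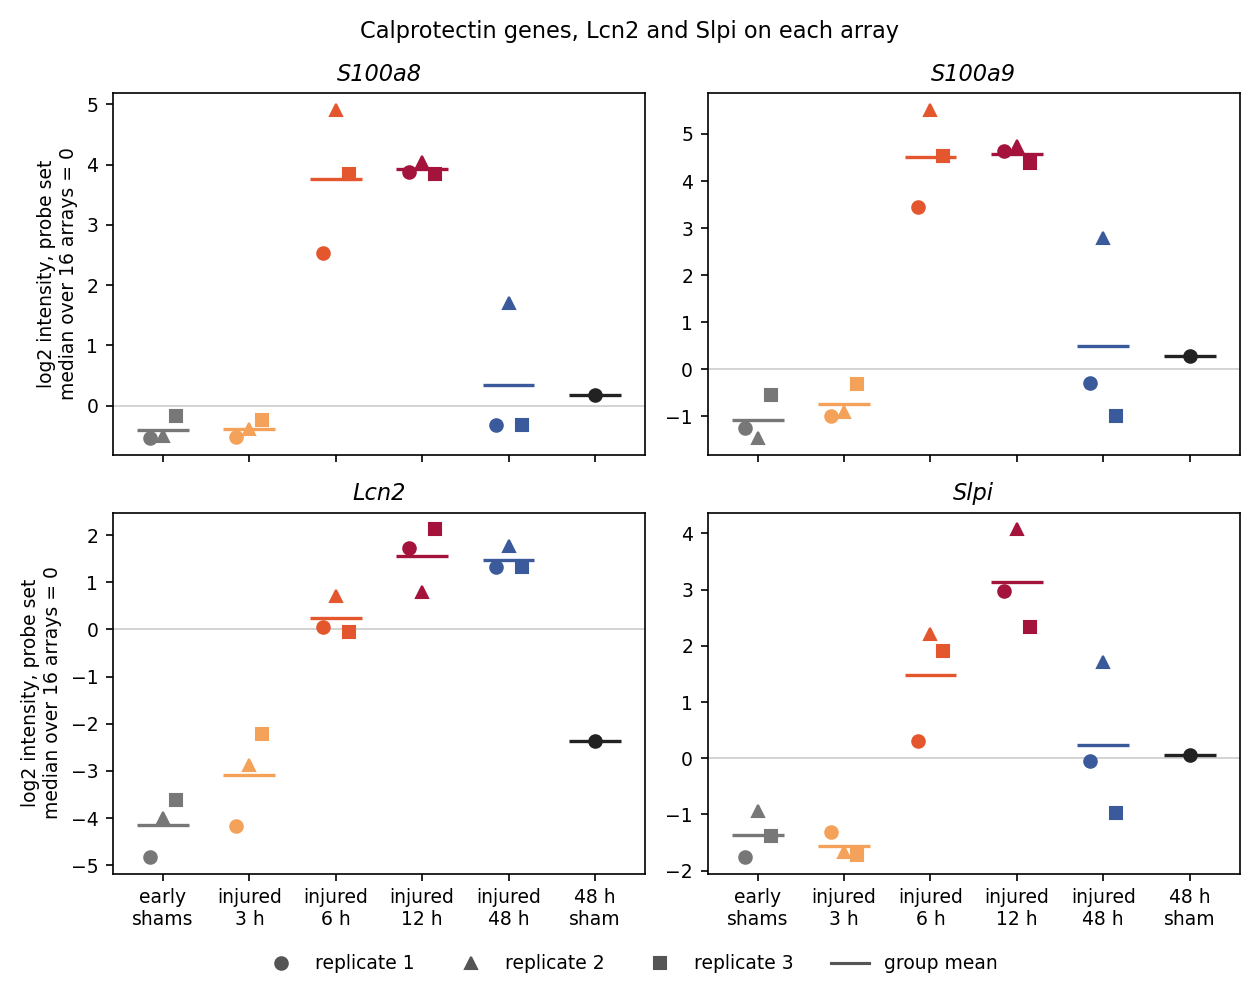
Log2 intensity of S100a8, S100a9, Lcn2 and Slpi (vertical axes, each probe set's median over the 16 arrays set to 0) on each array of the early shams, the injured groups at 3, 6, 12 and 48 h and the 48 h sham; symbols mark replicates and bars the group means. At 48 h the 3 Lcn2 points lie close together at 1.32 to 1.77, whereas replicate 2 stands above replicates 1 and 3 for the other 3 genes.

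Between 12 and 48 h the genes parted. The log2 difference (48 h minus 12 h) was -3.57 ± 0.53 for S100a8, -4.09 ± 0.73 for S100a9, -2.90 ± 0.62 for Slpi and -0.08 ± 0.45 for Lcn2. For the calprotectin genes and Slpi all 3 arrays at 48 h lay below all 3 at 12 h. Among all genes ordered from the steepest decrease, S100a9 was number 2, S100a8 number 4 and Slpi number 10. Set against the early shams, the 48 h log2 difference was 17.5% of the 12 h one for S100a8, 27.9% for S100a9, 35.5% for Slpi and 98.7% for Lcn2. These shares use log2 values, and both differences share the same early shams.

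At 48 h S100a8, S100a9 and Slpi were highest in injured replicate 2. Against the early shams their 48 h log2 differences were 0.76 ± 0.53, 1.58 ± 0.73 and 1.59 ± 0.62. Without injured 48 h replicate 2 they were 0.08, 0.44 and 0.85, while replicate 2 alone gave 2.11, 3.86 and 3.08. Replicate 1 also lay above all 3 early shams for S100a9 and Slpi, by 0.79 and 1.31 from their mean. For Lcn2 the same values were 5.62 with all 3 arrays, 5.47 without replicate 2 and 5.92 in replicate 2 alone.

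The 48 h sham was the control that the study used at this time. Its log2 difference from the early shams was 0.59 ± 0.75 for S100a8, 1.37 ± 1.04 for S100a9, 1.79 ± 0.64 for Lcn2 and 1.41 ± 0.87 for Slpi, with 1 array against 3. Set against it, the injured 48 h arrays differed by 0.17 ± 0.75 for S100a8, 0.21 ± 1.04 for S100a9 and 0.18 ± 0.87 for Slpi. With injured 48 h replicate 2 left out these became -0.51, -0.94 and -0.56. The Lcn2 difference was 3.83 ± 0.64, or 14.2-fold, the largest increase of all 14218 genes, and 3.68 without replicate 2. These errors rest on the assumption that sham animals at 48 h vary as much as animals of the replicated groups.

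**Figure D2:**
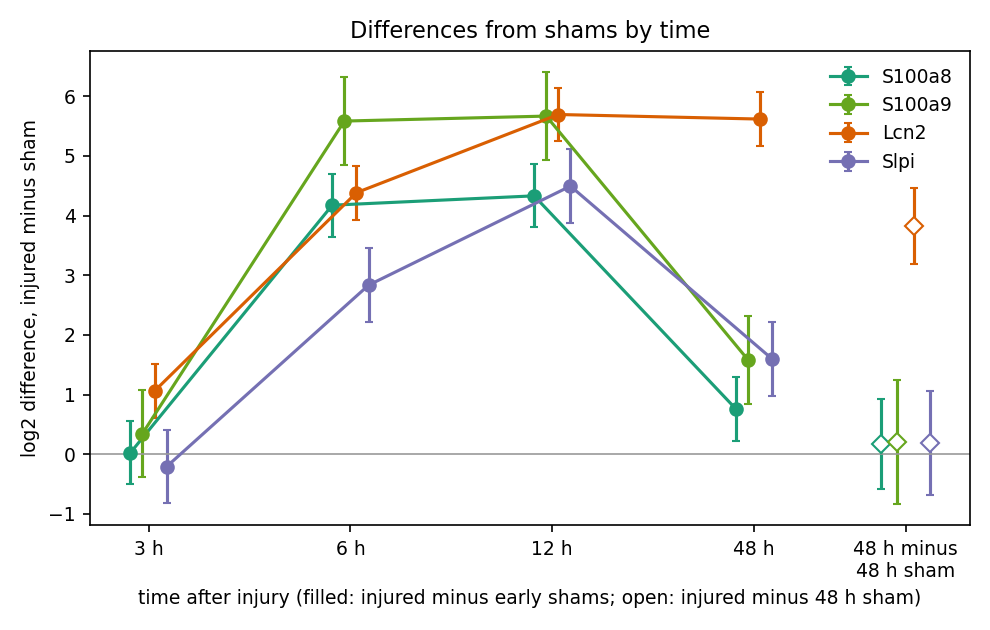
Log2 difference of S100a8, S100a9, Lcn2 and Slpi (vertical axis) against the early shams at 3, 6, 12 and 48 h (filled points) and against the 48 h sham (open points); bars are 1 SE. Lcn2 is at 5.69 at 12 h and 5.62 at 48 h, while S100a8, S100a9 and Slpi drop to between 0.76 and 1.59 at 48 h.

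The order of the group means was the same for S100a8 and S100a9: injured 12 h, 6 h, 48 h, the 48 h sham, injured 3 h and the early shams, from high to low. In that order 12 h overlapped with 6 h, 48 h with the 48 h sham, and 3 h with the early shams. For Slpi the injured 3 h mean was the lowest, overlapping with the early shams, and 6 h overlapped with 48 h. For Lcn2 the order was 12 h, 48 h, 6 h, the 48 h sham, 3 h and the early shams, and 48 h did not overlap with 6 h. Over the deviations of the 12 injured arrays from their group means, Slpi correlated with S100a8 at 0.842 and with S100a9 at 0.856. Lcn2 correlated at 0.335 with S100a8, at 0.344 with S100a9 and at -0.109 with Slpi. The deviations share injured 48 h replicate 2, which was high for all 4 genes.

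The 2 calprotectin probe sets did not keep a fixed distance. S100a9 minus S100a8 on the log2 scale was 0.60 to 0.91 on the injured 6 h arrays and 0.54 to 0.75 on the 12 h arrays, against -0.96 to -0.36 in the early shams. At 48 h it was 0.03, 1.08 and -0.67 in the order of the replicates, and 0.11 in the 48 h sham. Being centred, these differences compare arrays and do not give the ratio of the transcripts.

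Most of the other neutrophil genes did not pass the test at any 1 time. Of 34 listed markers 18 were measured, and Mpo, Elane and Ltf were among those with no probe set of their own. Genes were called at an adjusted p under 0.05 (limma, Benjamini-Hochberg over 14218 genes). None was called at 3 h, where 0.584% of all genes were, 1 rose at 6 h, where 2.67% were called and 1.98% rose, and 5 rose at 12 h, where 4.87% were called and 3.49% rose. At 12 h the median log2 difference of the list was 0.94, against -0.02 for all genes. Against the early shams at 48 h 3 rose, with 9.68% of all genes called and 6.37% higher. The shares of all genes called lower were 0.0985% at 3 h, 0.682% at 6 h, 1.38% at 12 h and 3.32% at 48 h. These shares of all genes stand beside the counts of every other list below.

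Il1r2, a decoy receptor for interleukin 1, changed most. Its log2 values were 1.75, 3.86 and 3.79 on the injured 6 h arrays, 3.39, 4.84 and 3.53 at 12 h and 0.02, 1.09 and -0.17 at 48 h, against -0.24, -0.13 and -0.02 in the early shams. As with calprotectin, all 6 and 12 h arrays were above all shams, and 48 h replicate 2 stood above its group. It rose by 3.26 ± 0.50 at 6 h (limma adjusted p = 0.00267) and by 4.05 ± 0.50 at 12 h (adjusted p = 0.000405), and its difference between 48 and 12 h was -3.61 (adjusted p = 0.000645).

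Pglyrp1, an antibacterial peptidoglycan-binding protein of neutrophil granules, rose by 1.80 ± 0.27 at 12 h (limma adjusted p = 0.00185). It was 0.82, 1.64 and 2.32 on the 3 injured arrays, against -0.30, -0.14 and -0.18 in the early shams, without overlap. Hp, haptoglobin, rose by 1.29 ± 0.30 at 12 h, Cxcr2, a chemokine receptor, by 1.17 ± 0.29, and Ncf4, an NADPH oxidase subunit, by 1.05 ± 0.27. These last 3 calls were each lost without any 1 early sham, and Cxcr2 and Ncf4 also without injured 12 h replicate 2, with adjusted p of up to 0.157. Without that array 4 of the list were called at 12 h.

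Several other genes of the list did not pass at 12 h, some with sizeable differences and some near 0. The receptor gene Csf3r was at 1.46 ± 0.41, and the integrin genes Itgb2 and Itgam were at 0.94 each. Mmp9, the gelatinase of neutrophil granules, had a log2 difference of 1.36 ± 0.37 at 12 h that was not called, and injured 12 h replicate 2 was at 2.52 against 0.62 and 0.62 on its companions. Camp, the granule peptide cathelicidin, was at 0.21 and Cxcr1 at 0.08 at 12 h, and the neutrophil defensins Np4, Defa5 and RatNP-3b lay between -0.07 and 0.14. Cxcr1 and the defensins were chosen after their values were seen.

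At 48 h against 12 h, Il1r2, Pglyrp1, Hp, Cxcr2 and Mmp9 fell (5 of 18 measured, where 15.3% of all genes were called, 8.19% higher and 7.14% lower), and without injured 48 h replicate 2 the count was 3. The calls of Cxcr2 and Mmp9 were lost without injured 48 h replicate 1 or 2, and that of Hp without replicate 1 or 3. The 3 genes that were higher at 48 h than in the early shams were Csf3r, the receptor for granulocyte colony-stimulating factor, and the integrins Itgam and Itgb2, which monocytes and microglia also express. Their log2 differences were 1.50 ± 0.41, 1.38 ± 0.31 and 1.42 ± 0.29. Leaving out injured 48 h replicate 2 gave a count of 1, and Csf3r and Itgam were no longer called, nor without early sham replicate 2 or 3 (Csf3r also without replicate 1).

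The mean of the 18 neutrophil markers per array was -0.23 to -0.11 at 3 h, 0.13 to 0.50 at 6 h, 0.38 to 1.04 at 12 h and 0.07, 0.53 and 0.08 at 48 h, against -0.21 to -0.17 in the early shams and -0.06 in the 48 h sham. Replicates 1 and 3 of injured 48 h were thus below all 6 arrays of 6 and 12 h while their Lcn2 was above all 3 of the 6 h arrays. Injured 48 h replicate 2 was the highest of its group for 10 of the 18 neutrophil markers (55.6%), 13 of 15 monocyte and macrophage markers (86.7%) and 28.9% of all genes. The part of neutrophil number in the members' differences was not tested.

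**Figure D3:**
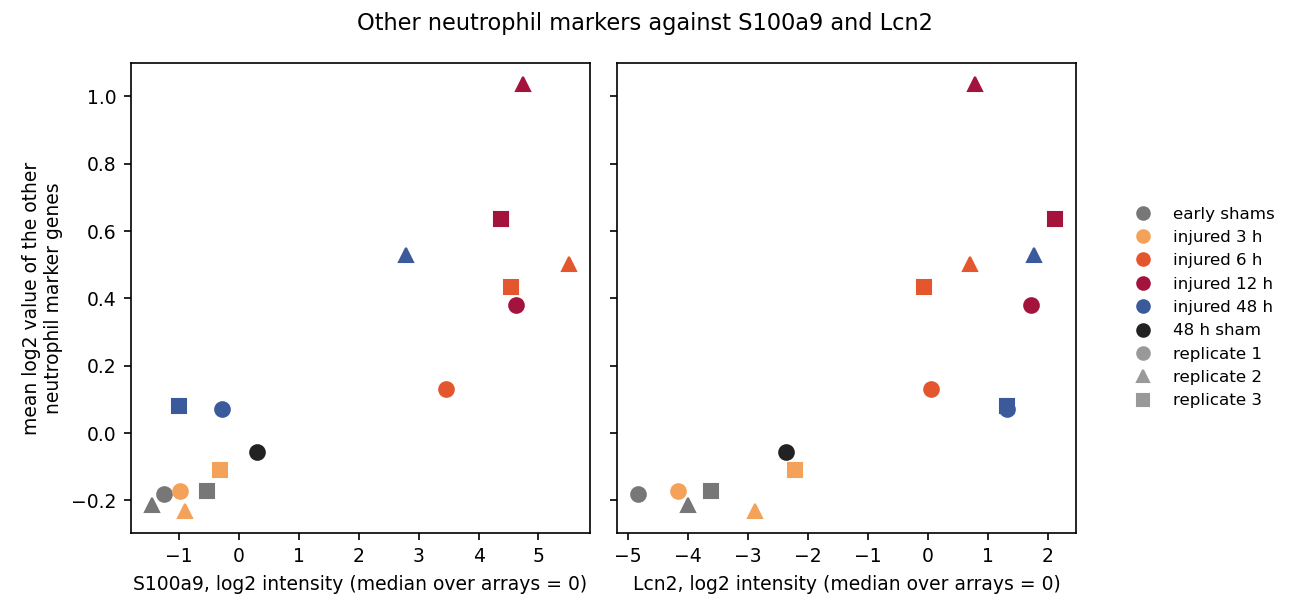
Mean log2 value of the 18 measured neutrophil markers other than the 4 genes described (vertical axis) against the log2 value of S100a9 (left) and Lcn2 (right), 1 point per array, colours for groups and symbols for replicates. Injured 48 h replicates 1 and 3 have S100a9 values of -0.29 and -1.0, near the shams, and Lcn2 values of 1.32 each, near the 12 h arrays.

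Signals that recruit neutrophils were high before calprotectin was. Of 20 measured genes 7 rose at 3 h, 7 at 6 h, 5 at 12 h and 2 at 48 h against the early shams. The neutrophil-attracting chemokines Cxcl1 and Cxcl2 rose at 3 h by 3.79 ± 0.58 and 4.79 ± 0.45, when S100a8 and S100a9 differed from the same shams by 0.02 and 0.35. The cytokine Il1b rose by 5.14 ± 0.39 at 3 h, by 5.21 at 6 h and by 2.88 at 12 h, with limma adjusted p of 1.06e-05, 1.59e-05 and 0.000862. Its values of 2.21 to 3.17 on the 6 arrays of injured 3 and 6 h did not overlap with those of -0.24 to 0.81 at 12 h or -2.89 to -2.40 in the early shams.

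Sele, the endothelial adhesion molecule E-selectin, rose by 4.51 ± 0.70 at 6 h and by 3.24 at 12 h, and the 12 h call was lost without early sham replicate 1 or 2 or injured 12 h replicate 2. Its 3 h difference of 2.05 was not called, with values of -1.55, 1.08 and 2.58. Csf3, which encodes granulocyte colony-stimulating factor, was not called at any time, with 0.61 ± 0.22 at 6 h. At 48 h against 12 h 4 of the list fell, among them Sele by 3.12 and Il1b by 1.82, and the same count held without injured 12 h replicate 2 or 48 h replicate 2. Without 12 h replicate 2 only 2 were called at 12 h against the early shams, and without 48 h replicate 2 none at 48 h.

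None of the other S100 genes measured was called lower from 12 to 48 h, the step in which S100a8 and S100a9 receded. Of 12 measured, none was called at 3 h, 1 rose at 6 h, 2 at 12 h and 5 at 48 h against the early shams, where their median was 0.88 against -0.01 for all genes. S100a4, an S100 protein of motile cells such as fibroblasts and macrophages, rose by 3.03 ± 0.46 at 48 h (limma adjusted p = 0.0019). It was at 3.00, 2.65 and 1.79 on the injured 48 h arrays and at 0.70, 1.85 and -0.69 at 12 h, against -0.53, -0.63 and -0.49 in the early shams and 1.51 in the 48 h sham. All 48 h arrays were above all early shams, and the 48 h sham was closer to the injured arrays than to the early shams.

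S100a13 rose by 1.23 ± 0.13 and S100a16 by 1.13 ± 0.13 at 48 h, with 12 h differences of -0.08 and 0.11 that were not called. From 12 to 48 h S100a1, S100a4, S100a13 and S100a16 rose, while S100a8 and S100a9 had differences of -3.57 and -4.09. The S100a4 call in this step was lost without injured 48 h replicate 1 or 2. S100a3 was the only one of the 12 called at 6 h, at 1.78 ± 0.31. The 2 called at 12 h were S100a3, at 1.64, and S100a10, at 1.17, and without injured 12 h replicate 2 the count was 1. Both were also called at 48 h, at 1.22 and 1.29, and neither was called between 12 and 48 h. S100b, an astrocyte protein, was at -0.22 ± 0.07 at 48 h and not called at any time. Leaving out injured 48 h replicate 2, 3 were called at 48 h against the early shams and 3 against 12 h.

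Among 12 receptors and adaptors of calprotectin, Cd14 changed most. Cd14, the co-receptor that works with Toll-like receptor 4, rose by 3.54 ± 0.61 at 6 h, 3.80 at 12 h and 2.68 at 48 h against the early shams. Its values were 0.63, 0.60 and 1.76 at 6 h, 0.68, 2.27 and 0.82 at 12 h and 0.09, 1.57 and -1.25 at 48 h, against -2.60, -2.58 and -2.44 in the early shams and -1.24 in the 48 h sham. Injured 48 h replicate 3 was level with the 48 h sham, and the 48 h call was lost without replicate 2 of injured 48 h or of the early shams, with adjusted p of up to 0.0723. The adaptor Myd88 rose by 1.54 ± 0.30 at 6 h, a call lost without replicate 1 or 2 of either group, and by 1.83 at 12 h. Ly96, the accessory protein of the receptor, rose by 1.71 ± 0.28 at 48 h.

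Tlr4 itself was at 0.18 at 6 h and 0.23 at 12 h, not called, when S100a8 and S100a9 were highest. At 48 h it rose by 0.70 ± 0.17, a call lost without any 1 early sham or injured 48 h replicate 2. Ager, which encodes the receptor RAGE, lay between -0.11 and -0.02 at all 4 times and was not called. It was chosen after its values were seen. Of the 12 genes, 2 rose at 6 h, 2 at 12 h and 3 at 48 h, or 1 at 48 h without injured 48 h replicate 2.

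The receptor Slc22a17, through which cells take up Lcn2, stayed within -0.15 to -0.01 of the early shams at the 4 times and was not called. Its 12 injured arrays ranged from -0.19 to 0.15, against 0.06 to 0.09 in the early shams. Of 11 measured receptors and iron-handling genes none was called at 3 or 6 h, 2 rose at 12 h and 2 at 48 h against the early shams. Hmox1, the enzyme that frees iron from haem, rose by 2.90 ± 0.63 at 12 h and 2.41 at 48 h, and injured 12 h replicate 2 was highest at 2.46 against 0.09 and 0.41 on its companions. The 12 h call was lost without that array or early sham replicate 2 or 3, and the 48 h call in 5 of 6 fits without 1 array, all but that without injured 48 h replicate 3. Steap4, a metalloreductase, rose by 2.45 ± 0.48 at 12 h, and Cp, the iron oxidase ceruloplasmin, by 1.79 ± 0.49 at 48 h. The Cp call was lost in the same 5 fits, and without injured 48 h replicate 2 none of the list was called at 48 h.

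Genes of the NF-kB, C/EBP and STAT3 pathways, which are known to drive transcription of Lcn2 and the calprotectin genes, rose early. Of 19 measured 4 rose at 3 h, 10 at 6 h, 9 at 12 h and 4 at 48 h against the early shams, and 6 fell from 12 to 48 h. Nfkbiz, the NF-kB cofactor needed for Lcn2 transcription in mouse cells, rose by 1.53 ± 0.23 at 3 h (limma adjusted p = 0.00603). It was at 0.91, 0.61 and 0.47 on the injured 3 h arrays, against -0.83, -0.74 and -1.04 in the early shams. At 6 h it rose by 1.15, a call lost without injured 6 h replicate 1 or 2 or early sham replicate 3. Its 2 probe sets differed in sign at every time, with log2 differences of -0.18 and 3.24 at 3 h, -0.13 and 2.43 at 6 h, -0.13 and 1.65 at 12 h and -0.15 and 1.10 at 48 h, so these rises rest on 1 of them.

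Cebpd, a C/EBP factor, rose by 2.15 ± 0.24 at 6 h and 1.93 at 12 h. Its 3 probe sets ranged from 0.17 to 3.22 at 6 h and from 0.05 to 3.03 at 12 h, so they did not rise alike. The gene was at 0.55, 0.67 and 0.52 at 6 h, 0.44, 0.33 and 0.34 at 12 h and -0.69, 0.04 and -1.20 at 48 h, against -1.28, -1.64 and -1.78 in the early shams and -0.31 in the 48 h sham. Stat3 rose by 1.53 ± 0.19 at 6 h and 1.96 ± 0.19 at 12 h, and Socs3, its feedback inhibitor, by 1.10 ± 0.20 and 1.07. From 12 to 48 h Stat3 fell by 1.12 and Socs3 by 1.03, while Lcn2 had a difference of -0.08.

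At 48 h Cebpd was at 0.95 and Stat3 at 0.83 above the early shams, the 3 probe sets of Cebpd ranging from -0.06 to 1.45. Both calls were lost without injured 48 h replicate 2 and without early sham replicate 2, and that of Cebpd also without early sham replicate 3 or injured 48 h replicate 1. Without injured 48 h replicate 2 none of the 19 was called at 48 h, and without injured 12 h replicate 2, 6 were called at 12 h. Socs3 was at 0.04 at 48 h, not called, and Nfkbiz at 0.47, not called. These values are RNA, and the activity of the factors was not measured. Their part in the members' differences was not tested.

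Slpi acts on neutrophil serine proteases, and Elane and Ctsg, which encode its main targets, had no probe set of their own. Of 7 measured targets and partners none was called at 3, 6 or 12 h, where 0.584%, 2.67% and 4.87% of all genes were. With so few genes, none called is close to those shares. Without injured 12 h replicate 2, 1 of the 7 was called higher at 12 h. Grn, progranulin, which Slpi protects from cleavage by elastase, was at -0.43, -0.61 and -0.31 on the injured 6 h arrays, 0.10, 0.14 and -0.13 at 12 h and 1.36, 2.25 and 1.01 at 48 h, against 0.06, -0.13 and 0.06 in the early shams. Only the 48 h arrays stood above the shams, and the gene rose by 1.54 ± 0.22 (limma adjusted p = 0.00136). Grn was highest at 48 h and Slpi at 12 h. At 48 h Slpi still differed from the early shams by 1.59 ± 0.62, with arrays that overlapped with theirs. Injured 48 h replicate 2 was the highest of its group for both genes. A link between the 2 genes was not tested.

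Of 18 other protease inhibitors 1 rose at 6 h, 4 at 12 h and 4 at 48 h, and 1 fell at 3 h, 1 at 6 h and 2 at 12 h, against the early shams. Serpina3n, a serine protease inhibitor of reactive astrocytes, rose by 4.13 ± 0.67 at 12 h. Its values were 2.37, 2.22 and 3.40 at 12 h and -0.09, 2.77 and -1.0 at 48 h, against -1.42, -1.56 and -1.42 in the early shams and 0.09 in the 48 h sham, so that 48 h replicate 2 again stood apart. Its 6 h difference of 2.72 was called, a call lost without any 1 of the 6 arrays.

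Timp1, an inhibitor of metalloproteinases, rose by 2.50 ± 0.50 at 12 h, a call lost without injured 12 h replicate 2 (adjusted p = 0.0564). Serping1, the C1 inhibitor, rose by 1.48 ± 0.28 at 12 h and 2.73 at 48 h, and A2m, a broad protease inhibitor, by 2.27 ± 0.44 at 48 h. Wfdc2, which like Slpi carries WAP domains, was not called, at -0.07 ± 0.11 at 12 h. Wfdc1, another WAP-domain gene, fell by 0.99 at 6 h and by 0.98 at 12 h. Without injured 12 h replicate 2 the counts at 12 h were 2 higher and 1 lower.

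Reactive astrocytes are a known source of Lcn2 in brain. Of 21 measured genes of reactive astrocytes 8 rose at 6 h, 13 at 12 h and 10 at 48 h against the early shams, and 1 fell at 3 h. The list's median log2 difference was 0.84 at 6 h, 1.56 at 12 h and 1.44 at 48 h. Its mean per array was 0.44 to 0.56 at 6 h, 0.73 to 1.09 at 12 h and -0.22 to 0.88 at 48 h. The early shams were at -0.99 to -0.865 and the 48 h sham at -0.11, so the lowest injured 48 h array was below that sham. Gfap, the astrocyte filament protein, was at -0.06, 0.06 and 0.47 at 6 h, 0.91, 0.66 and -0.14 at 12 h and 1.20, 1.28 and 1.04 at 48 h, against -0.40, -0.83 and -0.81 in the early shams and 0.61 in the 48 h sham. All 3 of its 48 h arrays were above all shams, and it rose by 1.85 ± 0.23 at 48 h (limma adjusted p = 0.000876). The 12 h difference of 1.16 was called too, but not without injured 12 h replicate 2 or early sham replicate 2.

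Hspb1, a small heat shock protein, rose by 2.92 ± 0.53 at 6 h, 4.35 at 12 h and 2.81 at 48 h. From 12 to 48 h 7 of the 21 astrocyte genes fell and 3 rose (Nes, Serping1 and Vim), the calls of Nes and Vim being lost without injured 48 h replicate 1 or 2 and that of Vim also without 12 h replicate 3. Without injured 48 h replicate 2 the count at 48 h was 6, and this array was the highest of its group for 16 of the 21 genes (76.2%). The part of astrocytes in the Lcn2 differences was not tested.

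Markers of other cells moved at the same times. Of 11 microglia markers 3 fell at 6 h and at 12 h (P2ry12, Gpr34 and Tmem119), 8 rose at 48 h against the early shams and 10 rose from 12 to 48 h. The Tmem119 calls at 6 and 12 h were lost without replicate 1 or 2 of either group. The mean of the microglia list per array was -0.87 to -0.23 at 6 h, -0.53 to -0.37 at 12 h and 1.16 to 1.83 at 48 h, against 0.01 to 0.26 in the early shams and 0.55 in the 48 h sham. Of 15 monocyte and macrophage markers 1 rose at 6 h, 2 at 12 h and 7 at 48 h. Their mean per array was -0.15 to 0.38 at 6 h, -0.03 to 1.04 at 12 h and 0.21 to 1.66 at 48 h, against -0.50 to -0.43 in the early shams and 0.16 in the 48 h sham. With injured 48 h replicate 2 left out, 3 of them were called at 48 h and 8 of the microglia markers. Cd68, a lysosomal protein of phagocytes, rose by 2.98 ± 0.45 at 48 h and had a difference of 0.77 at 12 h, not called.

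Of 9 endothelium markers 2 rose and 4 fell at 6 h, 1 rose and 2 fell at 12 h, and none was called at 48 h against the early shams. Of 14 markers of meninges and fibroblasts 1 fell at 3 h, 3 at 6 h and 4 at 12 h, 1 rose at 48 h, and 8 rose from 12 to 48 h. Of 11 neuron markers 1 fell at 12 h and 2 at 48 h. With injured 12 h replicate 2 left out, none of the meningeal markers was called at 12 h and 4 rose from 12 to 48 h, and of the endothelium markers none rose and 1 fell at 12 h. With injured 48 h replicate 2 left out, no meningeal marker was called at 48 h, 4 rose from 12 to 48 h, and 1 neuron marker fell at 48 h. The parts of these cells in the members' differences were not tested.

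A haemoglobin gene was higher in injured tissue despite the perfusion. Hbb, the haemoglobin beta chain, rose by 3.40 ± 0.52 at 3 h, 3.88 at 6 h and 2.53 at 12 h, the 12 h call lost without injured 12 h replicate 2 or early sham replicate 2. It was at 1.81, 0.71 and 1.66 at 3 h and -1.50, -1.61 and -2.20 at 48 h, against -2.16, -2.57 and -1.29 in the early shams. The 3 h arrays had Hbb above all shams while their S100a8 and S100a9 values overlapped with those of the early shams. Whether blood had a part in the members' differences was not tested. The other 4 measured erythrocyte genes were not called at any of the 4 times. None of 8 choroid plexus markers was called against the early shams, but Ttr, the choroid plexus transport protein, was at 5.16 and 5.98 in injured 3 h replicates 2 and 3 and 5.49 in 12 h replicate 3, against -0.27 to 0.15 in the early shams.

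**Figure D4:**
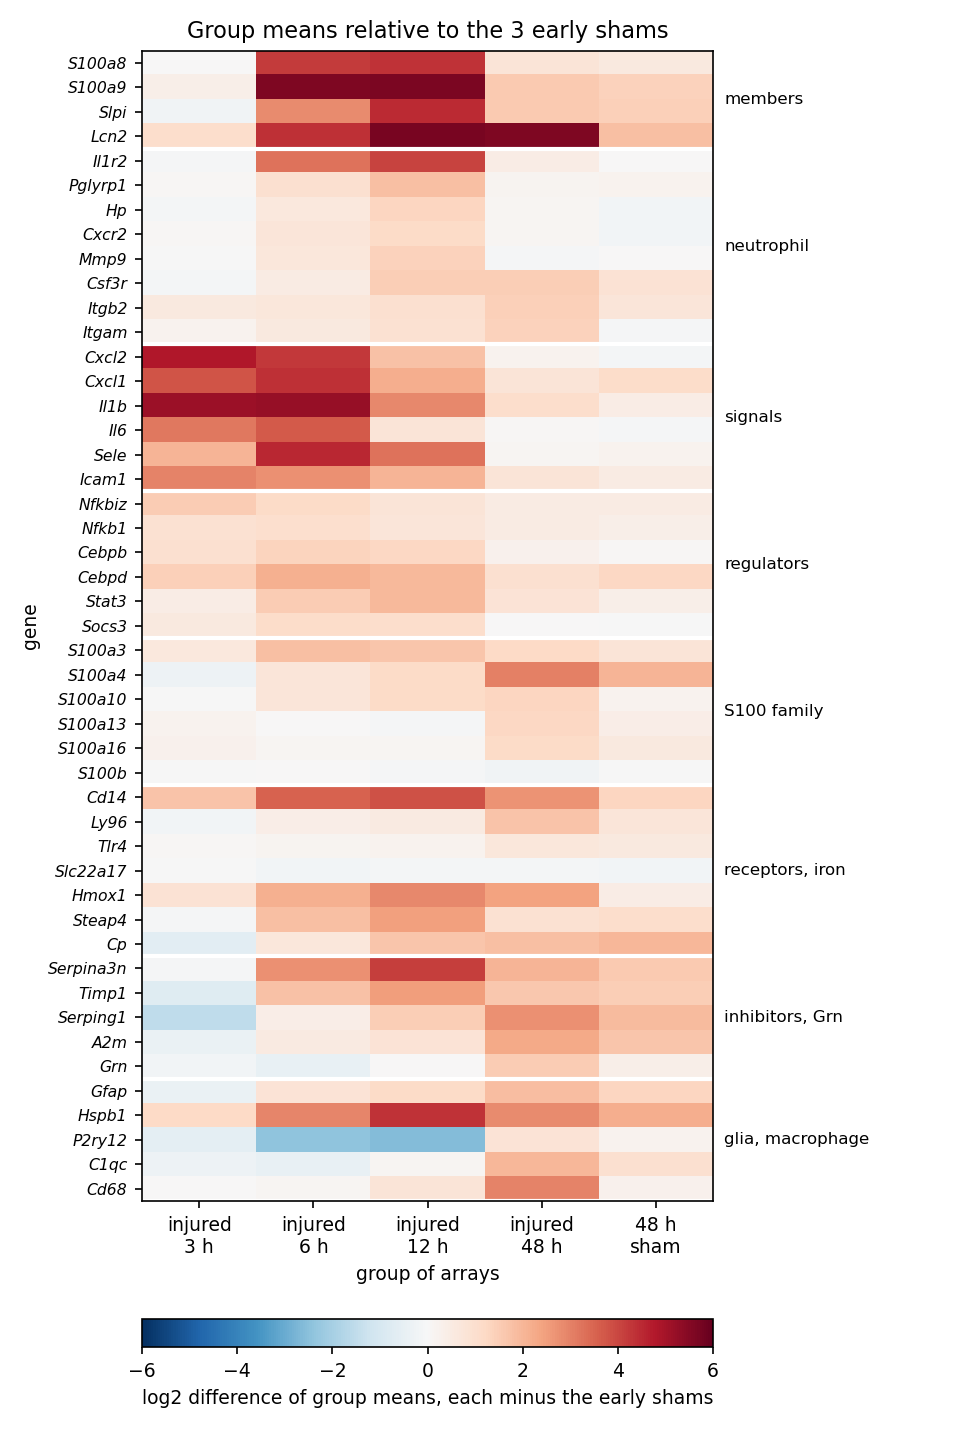
Log2 difference of the group mean from the early shams (colour) for S100a8, S100a9, Slpi, Lcn2 and selected genes of the other lists (rows), at injured 3, 6, 12 and 48 h and in the 48 h sham (columns). Recruitment signals such as Il1b are high from 3 h at 5.14, Il1r2 is high at 6 and 12 h at 3.26 and 4.05, and Lcn2 is at 5.62 at 48 h.

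Against the 48 h sham no gene was called at 48 h (limma, 0% of 14218), and 1061 had an unadjusted p under 0.05. The count was 129 without injured 48 h replicate 3, 2 without replicate 1 and 1 without replicate 2. With all arrays no gene of any list was thus called in that comparison. The list medians were 0.18 for neutrophil markers, 0.17 for reactive astrocyte genes, 0.80 for microglia and 0.51 for monocytes and macrophages, and the median of all genes was 0.

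The genes most like each of the 4 were found by the Pearson correlation over the 16 arrays, which share injury and time, and are given as a description. For S100a8 they were Il1r2 (0.975), Angpt2 (0.962), Slfn4 (0.958), Dtx3l (0.953) and Pla1a (0.95), and the same 5 genes came first for S100a9 at 0.95 to 0.96. For Lcn2 they were Sp140 (0.918), Slc39a1 (0.907), Casp4 (0.903), Tmbim1 (0.903) and Cnn3 (0.898), and for Slpi G3bp1 (0.975), Cdo1 (0.96), Fbl (0.957), Oas1a (0.94) and Hectd2 (0.934). No gene was among the first 5 of both Lcn2 and another of the 4.

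Angpt2, a ligand of the endothelial receptor Tie2, differed from the early shams by 2.46 at 6 h, 3.22 at 12 h and 0.37 at 48 h. Dtx3l, a ubiquitin ligase, differed by 2.51, 2.73 and 0.89 at those times. Sp140, a nuclear body protein, had a smaller range, with 0.68, 0.57 and 0.63, and Casp4, an inflammatory caspase, was at 1.52, 2.13 and 1.30. G3bp1, a stress granule protein, correlated most closely with Slpi over small differences of 0.27, 0.40 and 0.14. Over the 12 injured arrays alone the first genes were Il1r2 for S100a8 (0.971), Dtx3l for S100a9 (0.972), Mylip for Lcn2 (0.95) and G3bp1 for Slpi (0.973).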

How the data were processed

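The authors made the values with RMA, as the submitters' processing notes name it, a method that corrects background, quantile-normalizes arrays and summarises each probe set. RMA works in log2, and log2 was assumed for the deposited values. The deposited log2 values run from -5.64 to 5.98, and each of the 31099 probe sets has a median of 0 over the 16 arrays. The array files' scanner values were not used here. Arrays have no read depth, and their number limits the precision.

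The 20832 probe sets with 1 gene symbol were kept and averaged per gene, which gave 14218 genes. Current symbols replaced older ones by gene identifier where RefSeq held it (20764 probe sets, all but 68). A linear model of the 6 groups was fitted to all 16 arrays with limma 3.58.1 in R 4.3.3. Calling used Benjamini-Hochberg adjusted p-values over all genes and a threshold of 0.05. The script was tested on simulated data. Promoters are RefSeq's, from GRCr8.

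The 4 genes, the lists and the tests were chosen with earlier results of these data known. Genes named are the 4, a fixed panel, up to 4 called genes of each list with the largest changes against the early shams, and the closest genes by correlation; list members that decide a small count are named too. Alternatives were 2 other probe set rules, quantile normalization, median centring, fewer arrays in the model, other shams, each array left out and a replicate block. List counts without injured 12 h replicate 2 or 48 h replicate 2 were added after seeing the data. The closest pair of arrays differed by a root mean square of 0.184 over genes, so no array was counted as a duplicate.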

Additional observations from a re-analysis of the deposited data

How the results depend on the processing

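With 3 arrays a group and 1 sham at 48 h, small changes cannot be seen, and counts of called genes moved more than directions; the causes were not tested unless stated. After quantile normalization 198 genes were called at 3 h (134 higher and 64 lower, against 69 and 14 of the 83 as reported), 918 at 6 h (379), 4 at 48 h against the 48 h sham (0), 704 for 6 against 3 h (170) and 1260 for 48 against 12 h (2180). Under it the Lcn2 log2 difference was -0.44 at 3 h, a value set by its place at the low extreme of those arrays. It was 2.95 at 6 h, 3.94 at 12 h, 3.05 at 48 h against the 48 h sham and 3.70 against the early shams. For the 48 h sham against the early shams it was 0.66. At 12 h S100a8 was 3.54, S100a9 4.50 and Slpi 3.61. With only the compared groups in the model the counts were 151 at 3 h, 796 at 6 h, 271 at 12 h (692 as reported), 1 at 48 h against the 48 h sham, 585 against the early shams (1377), 551 for 6 against 3 h and 388 for 48 against 12 h. With the single sham of the same time as control they were 13, 75 and 91 at 3, 6 and 12 h, and Lcn2 was 1.74 at 3 h. Against the 48 h sham 3 genes were called with the widest probe set of each gene and 4 with every probe set by itself. Leaving out 1 array gave counts of 33 to 117 at 3 h, 177 to 274 at 6 h, 287 to 1230 at 12 h, 1 to 129 at 48 h against the 48 h sham, 482 to 2054 against the early shams, 39 to 157 for 6 against 3 h and 1339 to 2442 for 48 against 12 h. Without injured 48 h replicate 2 the S100a9 difference was -0.94 against the 48 h sham, 0.44 against the early shams and -5.23 against 12 h (over all left-out arrays -0.94 to 0.96, 0.44 to 2.33 and -5.23 to -3.34), and without any 1 array the named genes kept 168 of 290 calls in every fit. The replicate numbers were not used as pairs. Of 18 pairs of same-numbered arrays of different times, 3 had deviations correlated above 0.1 (-0.19 to 0.26). The labels do not say whether arrays share a processing day, so a shared day was not excluded. With a replicate block over the 12 injured arrays 79 genes were called for 6 against 3 h, and the other values changed less. Of 190 calls of named genes against the early shams, 51 rest on several probe sets, and in 6 of these the probe sets differ in sign (Nfkbiz at 3 and 6 h, Ggta1 at 12 and 48 h, Slfn4 at 12 h, Cebpd at 48 h). The other alternatives turned no call of a named gene around; with every probe set by itself only the one with the lowest p was followed.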
